A study of Mus musculus with 16 samples.

Results

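Mural cells wrap the endothelial tube of blood vessels: pericytes sit on capillaries, and vascular smooth muscle cells form the contractile coat of arteries, arterioles and veins. Endothelial cells recruit pericytes by secreting PDGF-B, which the pericytes receive through PDGFRB, and they instruct smooth muscle identity through Notch ligands read by NOTCH3. In skeletal muscle these cells set the flow through the capillary bed, and the potassium channel formed by KCNJ8 and ABCC9 relaxes them when cellular energy falls.

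Genes named as mural cell markers were followed by symbol in RNA-seq of quadriceps, the large extensor of the mouse knee. All 10 were found among the 17370 genes of the deposited count table: Rgs5, Pdgfrb, Notch3, Kcnj8, Abcc9 and Mcam, which lean towards pericytes, and Acta2, Myh11, Tagln and Cnn1, the contractile genes of smooth muscle. Kcnj8, Rgs5, Notch3 and Pdgfrb also occur in smooth muscle, and Mcam also in endothelium, so that the 2 sides are not exclusive. Abcc9 may also come from muscle fibres, as taken up with its level below. The quadriceps came from mice whose anterior cruciate ligament (ACL), a stabiliser of the knee, had been cut in 1 limb. The mice then had drinking water with an inhibitor of CSF1-R, the receptor that keeps macrophages alive, (40 mg/kg) for 7 days after the cut, while placebo mice drank 0.5% sucrose. There were 4 libraries in each of 4 groups: injured limbs with inhibitor, healthy limbs with inhibitor, injured limbs with placebo and healthy limbs with placebo. The healthy limb carries the same stem in its library name as an injured one, which was read as the other limb of 1 animal. The deposited design text speaks instead of muscle before and after the cut, so it is not settled whether a healthy value comes from the other limb of an operated mouse. The labels place each library in its healthy or injured group under either reading. All healthy library names end in L and all injured ones in R. If these letters mark the left and right limb, injury cannot be told apart from body side. Strain, sex and age are not given in the labels used here.

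The libraries held 20.12 to 27.13 M counts (M, mega), so 3 counts, the limit used for a gene at 0, correspond to 0.111 to 0.149 CPM, that is, counts per M counts of the library. That limit and all intervals on counts cover counting error only. CPM values were scaled between libraries by TMM, which assumes that most genes do not differ. Myofibre markers summed to 115000 to 204000 CPM, and no tested marker of fibres or endothelium was at 0 in all 16 libraries. In 4 libraries Prg4, the lubricin of joint lining, was above 100 CPM: healthy with inhibitor 1 at 169 CPM, injured with placebo 2 at 220 CPM, injured with placebo 3 at 286 CPM and healthy with placebo 4 at 251 CPM. The other 12 libraries had 3.97 to 19.5 CPM of Prg4. The median of the mural genes in each comparison is therefore also given for the 12 libraries low in Prg4, with some single genes. That choice was made after seeing the data and leaves 2 injured placebo libraries. Since RNA was taken from whole muscle, fewer mural cells and less RNA per mural cell cannot be told apart.

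All 10 genes were protein coding and are placed here on GRCm38. Rgs5 (ENSMUSG00000026678) lies at chr1:169655501-169695813 on the plus strand and encodes a regulator that shortens G-protein signals. Pdgfrb (ENSMUSG00000024620), the receptor for PDGF-B, lies at chr18:61045150-61085061 on the plus strand. Notch3 (ENSMUSG00000038146), the Notch receptor of mural cells, lies at chr17:32120820-32166852 on the minus strand. Kcnj8 (ENSMUSG00000030247), the pore of the vascular ATP-sensitive potassium channel, lies at chr6:142564837-142571614, and Abcc9 (ENSMUSG00000030249), its regulatory sulfonylurea receptor, at chr6:142587862-142702315. Both are on the minus strand with 16247 bases between them. Mcam (ENSMUSG00000032135), the adhesion molecule CD146, lies at chr9:44134469-44142727 on the plus strand.

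Of the contractile genes, Acta2 (ENSMUSG00000035783), the smooth muscle actin, lies at chr19:34241090-34255590 on the minus strand. Myh11 (ENSMUSG00000018830), the smooth muscle myosin heavy chain, lies at chr16:14194535-14291372 on the minus strand. Tagln (ENSMUSG00000032085), the actin-binding protein SM22, lies at chr9:45929619-45936058 on the minus strand. Cnn1 (ENSMUSG00000001349), calponin, which restrains actomyosin, lies at chr9:22099216-22109630 on the plus strand. There are 4 genes that overlap a gene on the other strand, and no source used here says whether counting used strand: Notch3 overlaps Gm17276 over 21024 bases, Abcc9 overlaps 5330439B14Rik over 11868 bases, Tagln overlaps Gm48529 over 3627 bases and Pcsk7 over 108 bases, and Mcam overlaps Gm10687 over 17 bases. These overlaps are of whole gene spans, introns included, and 5330439B14Rik is not among the counted genes. Whether reads of the partners were shared was not tested. Little of the contractile genes is shared with their relatives: of 1986 windows of 50 bases in the longest Acta2 transcript 7 occurred in Actg1 and 0 in Acta1, Actc1, Actg2 or Actb, and of 6500 such windows in Myh11 26 occurred in Myh9 or Myh10.

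The contractile genes are known targets of SRF, a transcription factor that binds the CArG box, a pair of C, 6 bases of A or T, and a pair of G. RefSeq promoters (GRCm38.p6, 250 bases before to 50 after the start) were matched for 7 of the 10 genes. Pdgfrb, Myh11 and Tagln were not matched. Acta2 is shown because its window holds 2 boxes with 1 mismatch in the core, and Rgs5 because its window holds none; the capitals mark the boxes, whose first letters lie 84 and 34 bases before the start.
Acta2, chr19:34255324-34255623, minus strand: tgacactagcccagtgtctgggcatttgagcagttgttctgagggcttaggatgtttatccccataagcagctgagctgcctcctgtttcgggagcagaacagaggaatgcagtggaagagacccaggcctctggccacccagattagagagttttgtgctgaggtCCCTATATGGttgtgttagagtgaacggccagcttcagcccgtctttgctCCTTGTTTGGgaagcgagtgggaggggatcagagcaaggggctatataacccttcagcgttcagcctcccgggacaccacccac
Rgs5, chr1:169655251-169655550, plus strand: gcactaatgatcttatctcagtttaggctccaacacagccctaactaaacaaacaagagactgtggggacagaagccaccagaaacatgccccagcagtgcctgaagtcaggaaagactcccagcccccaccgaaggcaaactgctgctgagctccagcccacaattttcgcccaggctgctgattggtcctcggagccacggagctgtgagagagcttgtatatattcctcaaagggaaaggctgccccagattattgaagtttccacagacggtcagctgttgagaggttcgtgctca
No exact CArG box was found in any of the 7 windows, on either strand, and no box with 1 mismatch in Notch3, Kcnj8, Abcc9, Cnn1 or Mcam. Of all 32851 promoters in the table, 1.63% held an exact box, 10% a box with up to 1 mismatch and 0.82% at least 2 of these. These matches describe the letters of the windows and no binding was measured.

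Rgs5 and Abcc9 stood far above the other mural genes. Per kilobase of exon, the scale on which genes can be compared, the level of Rgs5 averaged 51.4 ± 9.0 CPM per kb and that of Abcc9 36.8 ± 5.43 CPM per kb (SD over all 16 libraries). Acta2 followed at 8.85 ± 4.93 CPM per kb, then Tagln at 5.72, Mcam at 5.02, Pdgfrb at 4.94, Kcnj8 at 4.69, Notch3 at 3.41, Myh11 at 2.15 and Cnn1 at 0.181 CPM per kb. Rgs5 was above Abcc9 and Abcc9 above Acta2 in 16 of 16 libraries. From Acta2 to Kcnj8, each step between neighbours was smaller than the SD of its difference over libraries: Acta2 exceeded Tagln in 15 of 16, Tagln exceeded Mcam in 11 of 16, Mcam exceeded Pdgfrb in 8 of 16 and Pdgfrb exceeded Kcnj8 in 6 of 16. The steps from Kcnj8 to Notch3, Notch3 to Myh11 and Myh11 to Cnn1 were larger than that SD. Cnn1 rested on 5 to 24 counts per library, which is too few for its differences to be read closely.

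The 2 subunits of the vascular potassium channel did not have matching levels. The sulfonylurea receptor Abcc9 averaged 36.8 CPM per kb against 4.69 CPM per kb for its vascular pore Kcnj8. The pore Kcnj11, which pairs with sulfonylurea receptors in striated muscle fibres, was at 58.7 ± 8.04 CPM per kb. Abcc8, the receptor of pancreatic beta cells, was at 0.634 CPM per kb. How much of the Abcc9 level came from fibres and how much from mural cells was not tested. Levels of other vessel genes on the same scale were 1.01 CPM per kb for the pericyte proteoglycan Cspg4, 9.31 for the endothelial adhesion molecule Pecam1 and 4.78 for the endothelial VEGF receptor Flt1. The skeletal actin Acta1 was at 19900 CPM per kb.

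Libraries differed least in Notch3, with a coefficient of variation of 12.9% over all 16, and most in Acta2, with 55.7%, and in the low Cnn1, with 53.9%. The median over 11649 genes with a mean log2 CPM of at least 1 was 15.7%. Abcc9 at 14.7% and Rgs5 at 17.5% lay close to that median, and Myh11 at 26.6% above it. Acta2 ranged 4.43-fold, between 10.5 and 46.6 CPM, over the 16 libraries. In the 12 libraries low in Prg4 it ranged between 10.5 and 20.5 CPM, with a coefficient of variation of 24.9%. There Abcc9 at 10.8% and Pdgfrb at 11.4% varied less than Notch3 at 12.2%, and Cnn1 varied most at 54.4%.

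**Figure D1:**
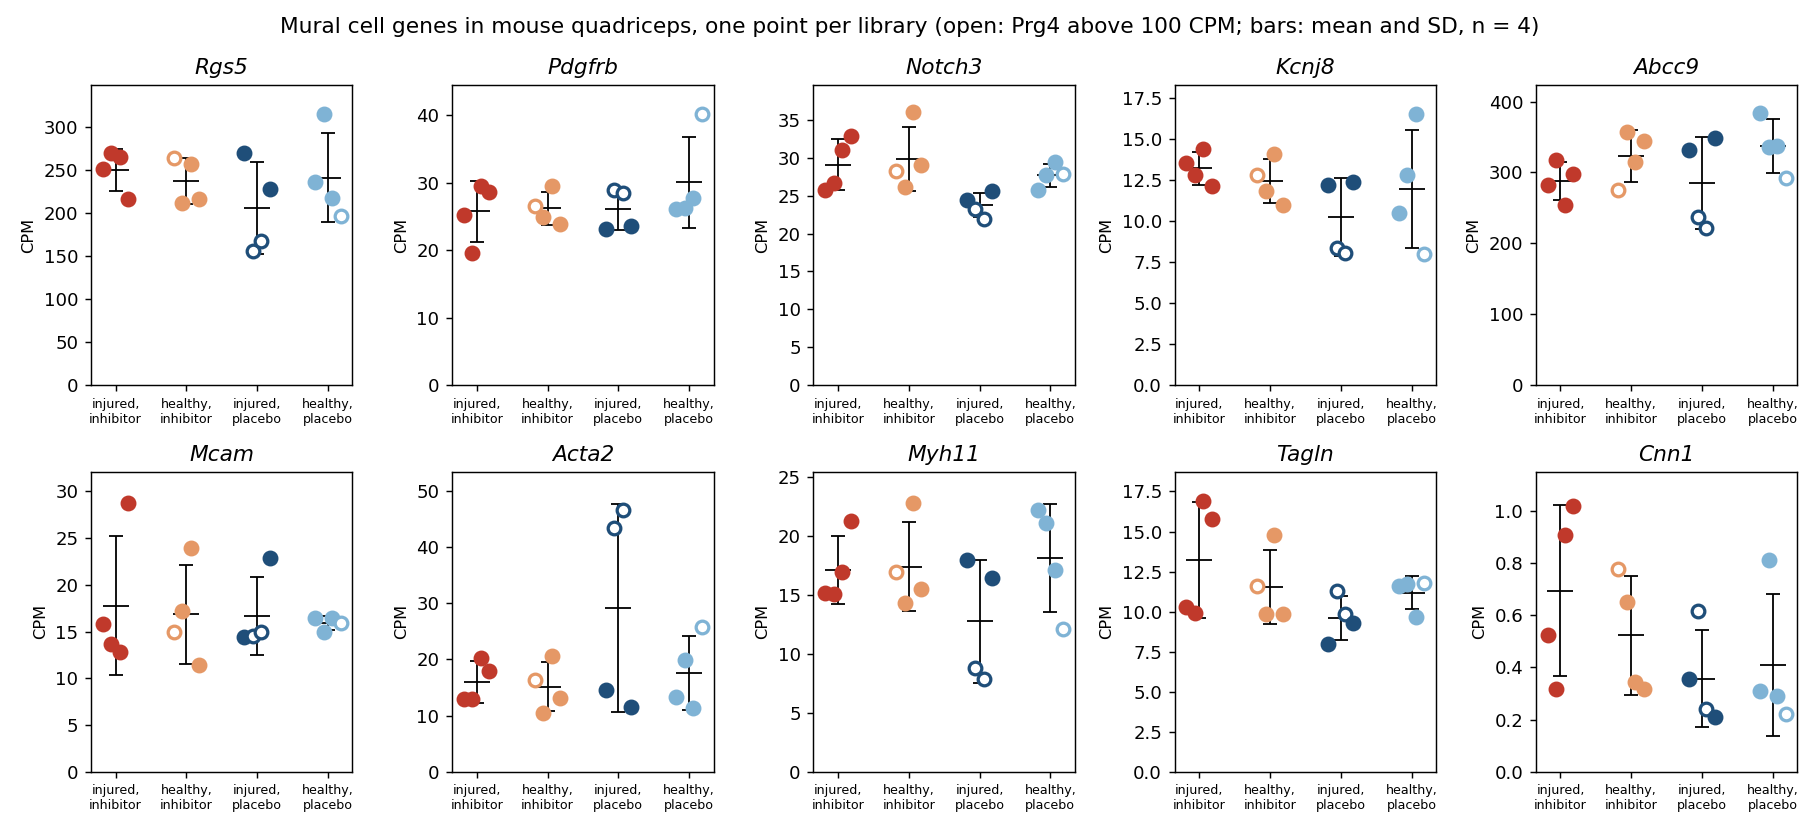
CPM of each of the 10 mural genes (vertical axis, starting at 0) in the 4 groups, 1 point per library, with group mean and SD (n = 4); open points are the 4 libraries with Prg4 above 100 CPM. Acta2 in injured quadriceps with placebo splits into 43.4 and 46.6 CPM in the open points and 14.6 and 11.6 CPM in the others, while Myh11 in the same open points is at 8.76 and 7.86 CPM.

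The first comparison asks what injury did under placebo. No mural gene passed the test of injured against healthy quadriceps (edgeR's quasi-likelihood test, Benjamini-Hochberg adjusted p under 0.05 over 15411 genes): adjusted p was 0.64 to 0.95 and 0 of 10 reached an unadjusted p under 0.05. Of all genes tested, 0% were called and 7.24% had an unadjusted p under 0.05; DESeq2 called 2 genes, none of them mural, and limma-voom with quality weights 0. The log2 difference was above 0 for Acta2 and Mcam and below 0 for 8 of the 10, where 51.1% of all genes were above 0 and 48.9% below. The median over the 10 was -0.22 and over all genes 0.007. Without the libraries high in Prg4 the median was -0.17, with 9 of 10 below 0.

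Notch3, the receptor that maintains arterial smooth muscle, was at 24.5, 23.2, 21.9 and 25.6 CPM in injured quadriceps with placebo, against 25.7, 27.7, 29.5 and 27.9 CPM in healthy quadriceps with placebo. The groups did not overlap, with the highest injured library at 25.6 CPM just under the lowest healthy one at 25.7 CPM, and Notch3 was the only mural gene of which this held; 0.681% of all genes were below their healthy group in the same way, and 0.87% above it. Since the groups did not overlap, the injured library is lower in any pairing of them, so the pairs add no separate evidence. In the 4 pairs with a shared name stem the log2 differences were -0.42 to -0.07. The fitted log2 difference was -0.22 ± 0.11 (SE; 95% interval -0.44 to 0.01; edgeR adjusted p = 0.64). It was -0.15 ± 0.15 without the libraries high in Prg4.

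Acta2 and Myh11, actin and myosin of the same contractile apparatus, had differences of opposite sign. Acta2 was at 14.6, 43.4, 46.6 and 11.6 CPM in injured quadriceps with placebo, against 13.3, 19.9, 11.3 and 25.8 CPM in healthy quadriceps with placebo. Injured libraries 2 and 3 were above every other library of the series, and injured libraries 1 and 4 lay within the healthy range. The log2 difference of Acta2 was 0.73 ± 0.42 (95% interval -0.18 to 1.63; edgeR adjusted p = 0.65), and -0.19 ± 0.31 without the libraries high in Prg4.

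Myh11 was at 18, 8.76, 7.86 and 16.4 CPM in injured quadriceps with placebo, against 22.2, 21.1, 17.1 and 12.1 CPM in healthy quadriceps with placebo. The libraries with the highest Acta2, injured 2 and 3, were the lowest in Myh11 of all 16. Its log2 difference was -0.51 ± 0.26 (95% interval -1.07 to 0.05; edgeR adjusted p = 0.64), and -0.23 ± 0.20 without the libraries high in Prg4. Those 2 injured libraries also had 145 and 252 CPM of Myh3, the embryonic myosin of newly formed fibres, against 1.11 to 14.1 CPM in the other 14. Csf1r was at 63.8 and 60 CPM there, against 1.83 to 29.9 CPM in the other 14. The part of these genes in the values of Acta2 and Myh11 was not tested.

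Of the remaining genes, Rgs5 had 270, 156, 168 and 228 CPM in injured quadriceps with placebo, against 236, 315, 217 and 197 CPM in healthy quadriceps with placebo. Libraries 2 and 3 were again the lowest of the series, and the log2 difference was -0.23 ± 0.17 with all libraries and -0.05 ± 0.16 without those high in Prg4. Abcc9 at 332, 237, 222 and 349 CPM with injury, against 384, 336, 338 and 292 CPM without, showed the same split, with -0.24 ± 0.14 and, in the 12 libraries, -0.06 ± 0.12. Kcnj8 was at 12.2, 8.32, 8.06 and 12.4 CPM in injured quadriceps and 10.5, 12.8, 16.5 and 7.98 CPM in healthy quadriceps, with overlapping groups. Pdgfrb (-0.20 ± 0.15), Tagln (-0.22 ± 0.19), Cnn1 (-0.18 ± 0.57) and Mcam (0.07 ± 0.25) also overlapped between the groups.

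The size of these differences depended on the fit and on single libraries. Under limma-voom with quality weights the log2 difference for injury with placebo was 1.06 for Acta2 (unadjusted p = 0.016), -0.89 for Myh11 (0.0051), -0.43 for Abcc9 (0.011), -0.41 for Rgs5 (0.026) and -0.40 for Kcnj8 (0.066). Their adjusted p by limma-voom was 0.17 to 0.28, so none was called. With 1 library left out by edgeR, the difference ranged from 0.40 to 0.99 for Acta2, -0.73 to -0.34 for Myh11, -0.40 to -0.08 for Rgs5, -0.39 to -0.03 for Kcnj8, -0.36 to -0.14 for Abcc9 and -0.27 to -0.04 for Pdgfrb. Both signs occurred for Cnn1, -0.59 without injured placebo 2 and 0.37 without healthy placebo 2, and for Mcam, -0.13 without injured placebo 4 and 0.13 without injured placebo 2. Notch3 stayed between -0.26 and -0.18 and Tagln between -0.31 and -0.15.

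The second comparison asks the same of mice given the inhibitor. Here the mural genes lay close together in injured and healthy limbs: 6 of 10 log2 differences were above 0, as were 51% of all genes, with 4 below 0, as were 49%, and the median was 0.08 against 0.003 for all genes. None of the 10 had an unadjusted p under 0.05 (1.31% of all genes had; 0% were called by edgeR, while DESeq2 called 1 gene, not mural, and limma-voom 0), adjusted p was 1 for each, and no mural gene separated the groups, as 1.13% of all genes did upwards and 1.12% downwards. Notch3 was at 25.8, 26.7, 31 and 32.9 CPM in injured quadriceps with inhibitor, against 28.3, 26.1, 36 and 29 CPM in healthy quadriceps with inhibitor. The log2 difference was -0.04 ± 0.11 (95% interval -0.26 to 0.19). Over the 10 genes, the median in the 12 libraries low in Prg4 was 0.06, with 6 above 0 and 4 below.

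Acta2 was at 12.9, 12.9, 20.3 and 18 CPM in injured quadriceps with inhibitor, against 16.4, 10.5, 20.5 and 13.2 CPM in healthy quadriceps with inhibitor. The groups overlapped almost fully, with a log2 difference of 0.08 ± 0.42 and a 95% interval of -0.83 to 0.99. In the 4 pairs with a shared name stem, injured minus healthy log2 differences of Kcnj8 were 0.03 to 0.14. Its fitted difference was 0.09 ± 0.19 (95% interval -0.32 to 0.50). How many of all genes had the same sign in every pair was not counted. Abcc9 had the value furthest below 0, -0.16 ± 0.14, and -0.24 ± 0.10 in the 12 libraries (unadjusted p = 0.031, edgeR adjusted p = 1).

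The third comparison sets the inhibitor against placebo in injured quadriceps. Of 10 log2 differences 8 were above 0, where 46.9% of all genes were, and Acta2 and Pdgfrb were below 0, where 53.1% were. The median was 0.29 against -0.021 for all genes. By edgeR 0 of 10 were called (0% of all genes), with adjusted p of 0.24 to 0.98. Notch3 and Tagln had an unadjusted p under 0.05, which 14.9% of all genes had. DESeq2 called 255 genes and limma-voom with quality weights 1348 genes, and neither called a mural gene. The median without the libraries high in Prg4 was 0.12, and 7 of 10 were above 0.

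Notch3 was at 25.8, 26.7, 31 and 32.9 CPM in injured quadriceps with inhibitor, against 24.5, 23.2, 21.9 and 25.6 CPM in injured quadriceps with placebo. The groups did not overlap, with the lowest inhibitor library at 25.8 CPM just above the highest placebo one at 25.6 CPM, and 2.77% of all genes were above their placebo group in this way and 2.87% below it. The log2 difference was 0.29 ± 0.11 (95% interval 0.06 to 0.52; unadjusted p = 0.015, edgeR adjusted p = 0.24). It was 0.22 ± 0.14 in the 12 libraries.

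Tagln was at 10.3, 9.9, 16.9 and 15.8 CPM in injured quadriceps with inhibitor, against 7.95, 11.3, 9.82 and 9.28 CPM in injured quadriceps with placebo. Injured libraries 3 and 4 with inhibitor were above every placebo library, and libraries 1 and 2 were within the placebo range. The log2 difference was 0.46 ± 0.19 (95% interval 0.07 to 0.86; unadjusted p = 0.023, edgeR adjusted p = 0.27). Without the libraries high in Prg4 the difference of Tagln was 0.62 ± 0.24 (edgeR adjusted p = 0.75).

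Acta2 was at 12.9, 12.9, 20.3 and 18 CPM in injured quadriceps with inhibitor, against 14.6, 43.4, 46.6 and 11.6 CPM in injured quadriceps with placebo. All inhibitor libraries lay within the placebo range and below placebo libraries 2 and 3. The log2 difference was -0.86 ± 0.42 (95% interval -1.77 to 0.05; edgeR adjusted p = 0.36), and its sign turned in the 12 libraries, to 0.30 ± 0.30. Other differences that shrank there were those of Myh11, 0.43 ± 0.26 with all libraries and 0.00 ± 0.19 in the 12, of Kcnj8, 0.37 ± 0.19 and 0.11 ± 0.17, and of Rgs5, 0.29 ± 0.17 and 0.01 ± 0.15. Abcc9 was at 0.01 ± 0.14 with all libraries and -0.24 ± 0.11 in the 12.

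Cnn1 was at 0.526, 0.318, 0.909 and 1.02 CPM in injured quadriceps with inhibitor, against 0.357, 0.618, 0.241 and 0.21 CPM in injured quadriceps with placebo. The groups overlapped, and the log2 difference of 0.95 ± 0.56 had a 95% interval of -0.23 to 2.12. Mcam (0.09 ± 0.25) and Pdgfrb (-0.02 ± 0.15) had intervals that spanned 0, of -0.45 to 0.63 for Mcam and -0.34 to 0.30 for Pdgfrb. Under limma-voom with quality weights, the adjusted p of Rgs5 was 0.051, of Acta2 0.053, of Kcnj8 0.059 and of Myh11 0.06, just short of the threshold. Their log2 differences in that test, 0.48, -1.12, 0.57 and 0.78 in that order, were further from 0 than by edgeR, while those in the 12 libraries were closer to 0 or, for Acta2, of the other sign.

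**Figure D2:**
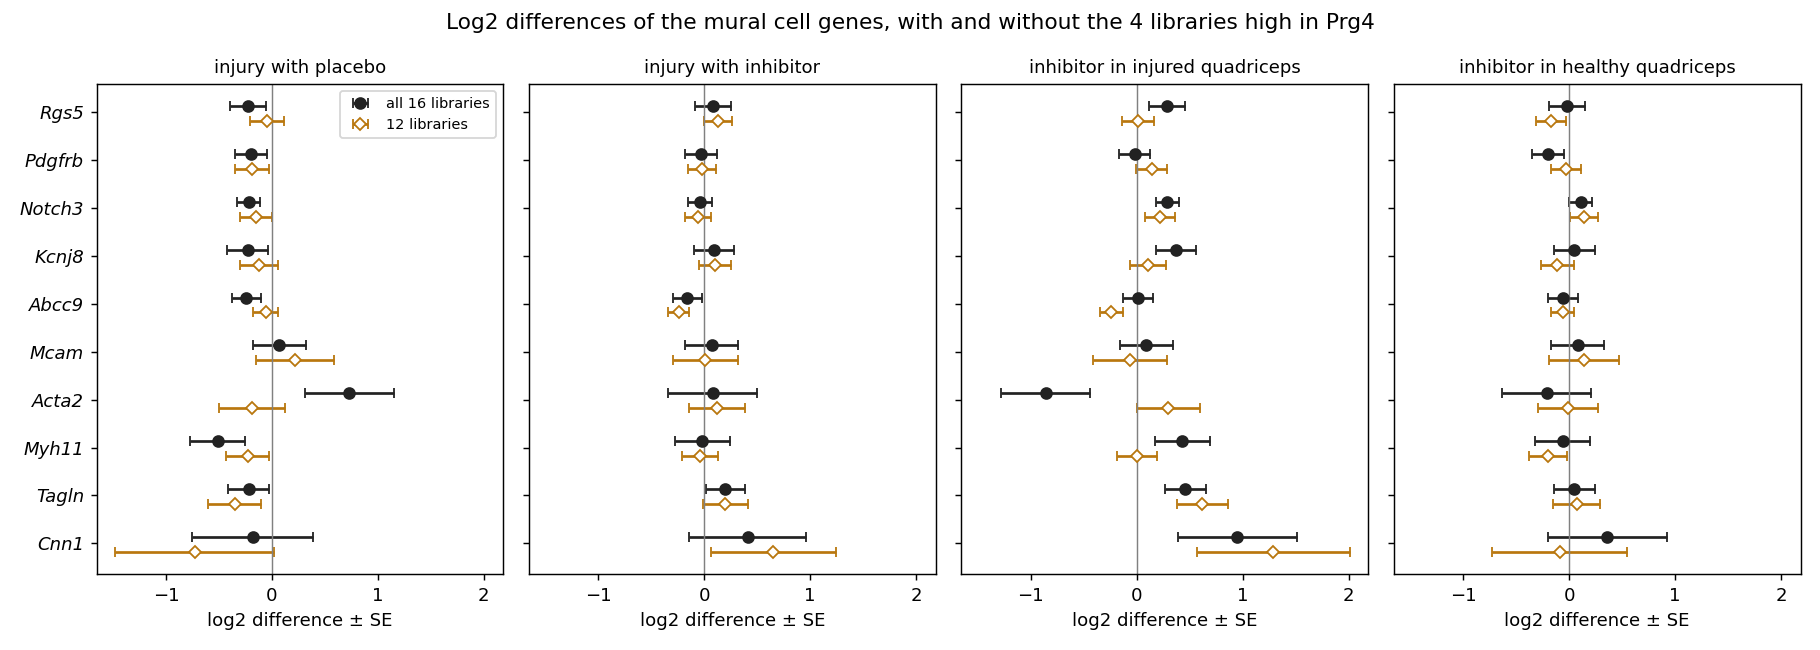
Log2 difference ± SE of each mural gene (horizontal axis) in 4 comparisons, injured over healthy in the first pair of panels and inhibitor over placebo in the second, from all 16 libraries (filled) and from the 12 libraries low in Prg4 (open). Acta2 in the third panel is at -0.86 with 16 libraries and at 0.30 with 12, while Tagln is at 0.46 and 0.62.

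The fourth comparison, the inhibitor in healthy quadriceps, gave 5 differences above 0 and 5 below, where 46% of all genes were above 0 and 54% below. The median was 0.01 against -0.017 for all genes, 0 of 10 were called by edgeR (0% of all genes; 3.34% had an unadjusted p under 0.05 and DESeq2 called 11 genes, none mural, and limma-voom 0), and none of the 10 had an unadjusted p under 0.05. No mural gene separated the groups; 0.96% of all genes did upwards and 1.59% downwards. Pdgfrb was at 26.6, 25, 29.5 and 23.9 CPM in healthy quadriceps with inhibitor, against 26.1, 26.2, 27.8 and 40.2 CPM in healthy quadriceps with placebo. Its log2 difference was -0.20 ± 0.15, and -0.03 ± 0.14 without the libraries high in Prg4, which include the placebo library at 40.2 CPM. Myh11 at 16.9, 14.3, 22.8 and 15.5 CPM with inhibitor and 22.2, 21.1, 17.1 and 12.1 CPM with placebo differed by -0.06 ± 0.26. Over the 10 genes, the median in the 12 libraries low in Prg4 was -0.05, with 3 above 0 and 7 below.

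Whether injury differed between the treatments was tested as the difference of the injury effects, inhibitor minus placebo. It was above 0 for 9 of 10 genes, where 49.5% of all genes were, with Acta2 alone below 0, and the median was 0.25 against -0.003. By edgeR 0 of 10 were called (0% of all genes), each with an adjusted p of 1, and none had an unadjusted p under 0.05 (2.74% of all genes had; DESeq2 and limma-voom called 0). For Notch3 the difference was 0.18 ± 0.15 (95% interval -0.14 to 0.50), so the separation seen with placebo and its absence with inhibitor were not shown to differ. For Tagln it was 0.42 ± 0.26, for Myh11 0.49 ± 0.37 and for Acta2 -0.65 ± 0.60, or 0.30 ± 0.40 in the 12 libraries. Over the 10 genes, the median in the 12 libraries was 0.19, with 8 above 0 and 2 below. The comparisons share libraries, so their values for a gene are not independent of each other.

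Correlations between the mural genes were taken on log2 CPM with the group means removed, as a description, since libraries of an animal and the common scaling tie the points together. In the 12 libraries low in Prg4, Tagln correlated with Pdgfrb (Pearson r = 0.81), Acta2 (0.79), Myh11 (0.78) and Notch3 (0.78), and Acta2 with Myh11 (0.79). Notch3 correlated with Pdgfrb (0.71), Myh11 (0.70) and Acta2 (0.69). With the other 4 libraries included, r was -0.54 for Acta2 with Myh11 and 0.11 for Myh11 with Tagln, and 0.64 for Acta2 with Tagln.

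In the 12 libraries Rgs5 had r of 0.13 to Tagln, 0.04 to Notch3, -0.11 to Pdgfrb and 0.25 to Myh11, and a higher r of 0.63 to Acta2. In all 16 the r of Rgs5 was 0.72 to Myh11 and -0.45 to Acta2. Abcc9 had r of -0.69 to Pdgfrb, -0.63 to Acta2, -0.55 to Notch3, -0.50 to Tagln and -0.21 to Myh11 in the 12 libraries. In all 16 its r was -0.70 to Pdgfrb and -0.88 to Acta2, but 0.07 to Notch3 and 0.67 to Myh11. The r of Abcc9 to its channel partner Kcnj8 was -0.69 in the 12 libraries and 0.45 in all 16, and r of Abcc9 to the fibre pore Kcnj11 was 0.47, or 0.50 in all 16.

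**Figure D3:**
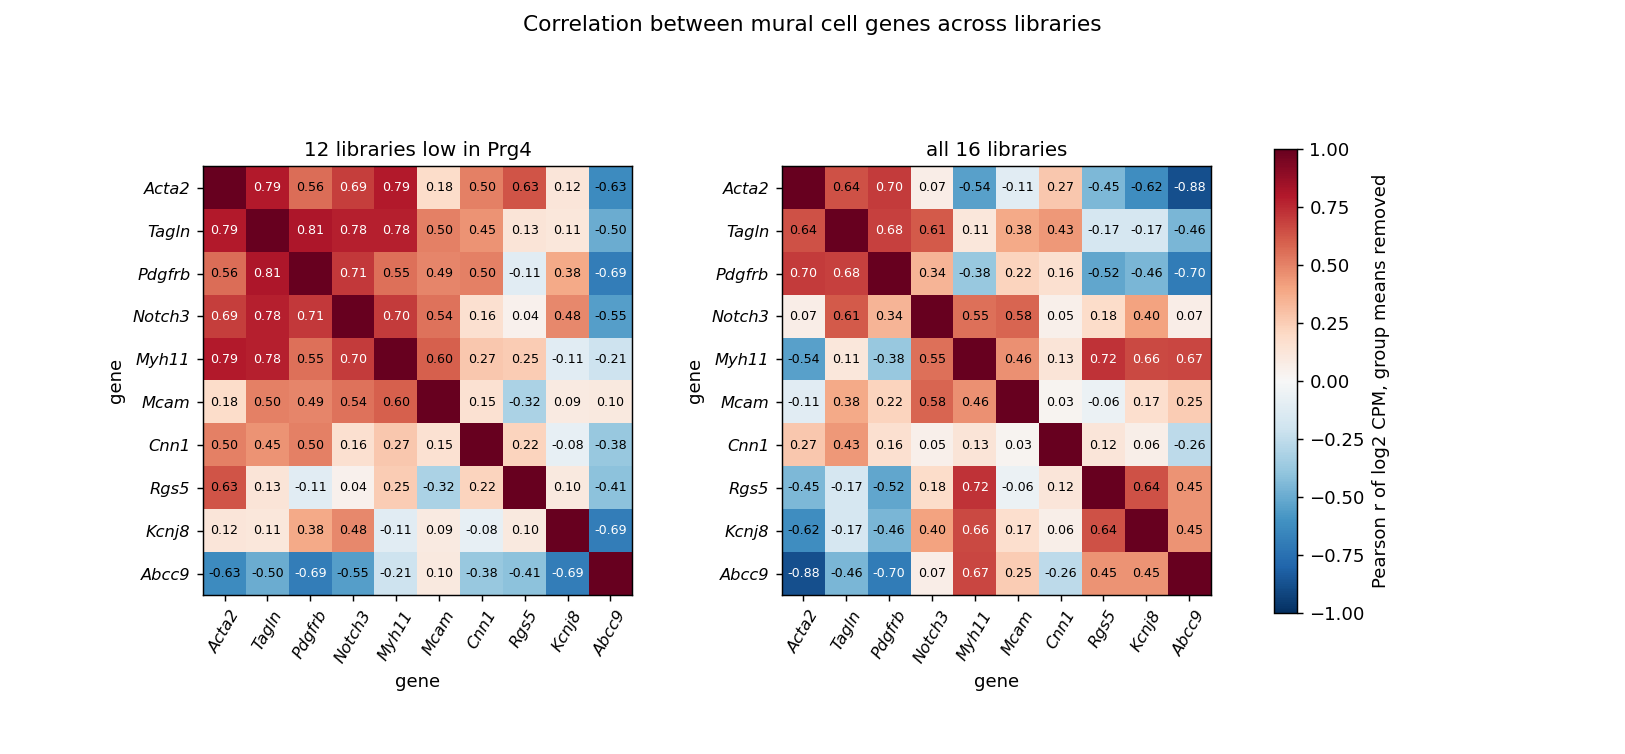
Pearson r between mural genes (rows and columns) of log2 CPM with group means removed, in the 12 libraries low in Prg4 (left) and in all 16 (right). The block of Acta2, Tagln, Pdgfrb, Notch3 and Myh11 at the upper left holds r of 0.55 to 0.81 in the 12 libraries. In all 16 the same block holds r of -0.54, for the pair of Acta2 and Myh11, to 0.70, for Pdgfrb and Acta2.

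Of the 5 genes most like Rgs5, 4 make mitochondrial proteins, and of the 5 most like Myh11, 3 are endothelial. Over the 16 libraries, r to Rgs5 was highest for Got1 and Got2, the cytosolic and mitochondrial aspartate aminotransferases (0.97 each), Cpt2, which prepares fatty acids for mitochondrial oxidation (0.97), Lrpprc, which stabilises mitochondrial mRNA (0.96), and Tmem65, a mitochondrial membrane protein (0.96). In the 12 libraries these r were 0.94, 0.92, 0.93, 0.93 and 0.94. None of these is a pericyte marker, and the r of Rgs5 to the mean of 16 other pericyte markers was 0.68 in the 12 libraries and 0.23 in all 16.

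For Myh11, r was highest to Fgd5 (0.95), Tmem87b (0.93), Flt1 (0.93), Foxj3 (0.92) and Adgrf5 (0.92), of which Fgd5, Flt1 and Adgrf5 are genes of endothelium. In the 12 libraries these r were 0.88, 0.89, 0.80, 0.75 and 0.75. To the mean of 12 endothelial markers, Myh11 had an r of 0.95 in all 16 and 0.90 in the 12 libraries. Acta2 had 0.82 to the same markers in the 12 libraries and -0.42 in all 16.

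With Myh3 of new fibres, Acta2 had an r of 0.91 in all 16 libraries and 0.61 in the 12. With the macrophage markers it had 0.80 and 0.47. In injured quadriceps with placebo, Flt1 was at 96.8, 39.9, 32.6 and 65.7 CPM, so the libraries with the lowest Myh11 were also the lowest in Flt1.

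**Figure D4:**
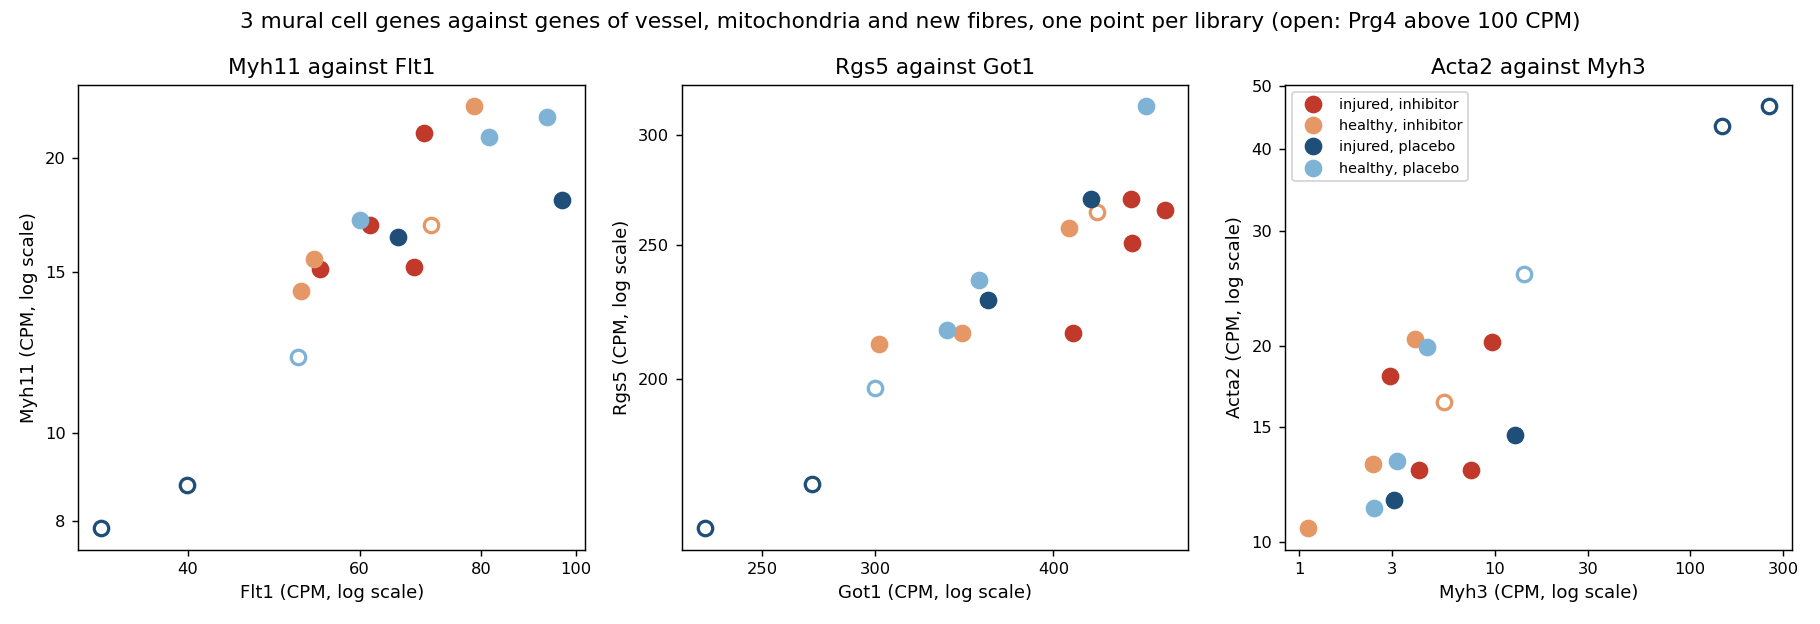
CPM of Myh11 against Flt1, Rgs5 against Got1 and Acta2 against Myh3 in each library (log scales on both axes; colours are the groups, open points the 4 libraries with Prg4 above 100 CPM). The 2 open points of injured quadriceps with placebo are lowest for Myh11 and Rgs5, and highest for Acta2, at 43.4 and 46.6 CPM with 145 and 252 CPM of Myh3.

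Lists of genes around mural cells were counted in the same fits, and edgeR called none of their genes in any comparison. Of 16 other pericyte markers, 9 were higher and 7 lower in injured quadriceps with placebo (median 0.13, with 1 of 16 at an unadjusted p under 0.05, which 7.24% of all genes had), and 6 were higher and 10 lower with inhibitor in injured quadriceps (median -0.08). The 3 most abundant of them, Art3, Steap4 and Cspg4, had log2 differences of -0.09 ± 0.16, 0.13 ± 0.20 and 0.30 ± 0.18 for injury with placebo. Their summed level was 205 to 232 CPM in injured quadriceps with placebo and 190 to 228 CPM in healthy quadriceps with placebo. Of 21 other contractile genes tested, 8 were higher and 13 lower with injury and placebo (median -0.14), and 11 were higher and 10 lower with inhibitor in injured quadriceps (median 0.13, with 3 of 21 at an unadjusted p under 0.05, which 14.9% of all genes had). The most abundant of these, Tpm1, Tpm2 and Des, are also genes of skeletal fibres. The enteric actin Actg2 was too low to be tested, and Myocd, the coactivator of SRF in smooth muscle, was not found by symbol in the deposited count table.

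In the Notch pathway, 14 genes were tested, with the mural gene Notch3 among them. In injured quadriceps with placebo 7 were higher and 7 lower. With inhibitor in injured quadriceps 4 were higher and 10 lower, with 3 of 14 at an unadjusted p under 0.05 by edgeR, beside 14.9% of all genes. Rbpj, the DNA-binding partner of all Notch receptors, differed by -0.44 ± 0.13 with inhibitor in injured quadriceps (unadjusted p = 0.0037, edgeR adjusted p = 0.22), against 0.29 ± 0.11 for Notch3. Jag2, a Notch ligand, differed by -0.04 ± 0.09 there. Of 8 genes of PDGF signalling, 3 were higher and 5 lower with injury and placebo, and 4 and 4 with inhibitor in injured quadriceps, with the ligand Pdgfb at -0.14 ± 0.15 and -0.11 ± 0.16.

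Of 7 genes of SRF and its coactivators, 6 were lower in injured quadriceps with placebo (median -0.23), where Srf differed by -0.34 ± 0.13 (unadjusted p = 0.02, edgeR adjusted p = 0.64). Srf was the 1 gene of these 7 with an unadjusted p under 0.05 by edgeR, which 7.24% of all genes had. With inhibitor in injured quadriceps 6 of 7 were higher (median 0.17), and Tead1, which binds with SRF at muscle genes, differed by 0.48 ± 0.16 (unadjusted p = 0.0072, edgeR adjusted p = 0.23). Tead1 was the 1 gene of the 7 with an unadjusted p under 0.05 by edgeR there, beside 14.9% of all genes. These factors also act in skeletal fibres. The 4 subunits of ATP-sensitive potassium channels include the mural genes Abcc9 and Kcnj8. All 4 were lower with injury and placebo (median -0.23), with Kcnj11 at -0.27 ± 0.12. With inhibitor in injured quadriceps all 4 were higher (median 0.15), with Kcnj11 at 0.21 ± 0.12 and Abcc9 at 0.01 ± 0.14. In the 12 libraries low in Prg4, 3 were higher in that comparison and 1 lower (median 0.09). Of 5 angiopoietin genes, 2 were higher with injury and placebo and 3 with inhibitor in injured quadriceps, and of 11 receptors of vascular tone, 6 and 5.

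Markers of other cells differed in the same libraries. Of 12 endothelial markers 11 were lower in injured quadriceps with placebo (median -0.18; summed level 316 to 529 CPM, against 388 to 506 CPM in healthy quadriceps with placebo), and the median was 0.00 in the 12 libraries. All 12 macrophage markers were higher with injury and placebo (median 1.63) and all 12 lower with inhibitor in injured quadriceps (median -2.61). In the 12 libraries low in Prg4 the directions were the same for all 12 markers, with medians of 1.22 and -0.63. The macrophage markers summed to 33.4 to 62.4 CPM in injured quadriceps with inhibitor and 27.7 to 85.3 CPM in healthy quadriceps with inhibitor. With placebo they summed to 61.2 to 402 CPM in injured quadriceps and 17.2 to 210 CPM in healthy quadriceps. None was called, and their part in the values of the mural genes was not tested.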

How the data were processed

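Per the labels' protocols, TRIzol and a column kit gave the quadriceps RNA. The deposited table holds expected counts per Ensembl gene, not normalized; 24.2% of the values differed from a whole number by over 0.01, and all were rounded here. STAR, Partek, DESeq2, GRCm38 and mm10 are named, per the submitters' processing notes, without a role or version; the annotation release, read length and strand are not given in the sources used here. Symbols, exon lengths and coordinates came from GENCODE M21 (GRCm38) by Ensembl ID, and 32 of 17370 IDs had no symbol. The injury and treatment rows of the table's header matched the labels for 16 of 16 libraries.

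In R 4.3.3, edgeR 4.0.16 removed 1959 genes with filterByExpr (minimum count 10), scaled by TMM and fitted robust quasi-likelihood models with a mean for each of the 4 groups over all 16 libraries (12 residual degrees of freedom, common biological coefficient of variation 0.284). Tests of the 5 comparisons were two-sided, and p-values were adjusted by Benjamini-Hochberg over all 15411 tested genes, with a threshold of 0.05. SE is the log2 difference over the root of F. Each library is labelled a biological replicate, and its name holds a stem and the letter L or R. The p-values speak only of the spread between these libraries. Correlations used log2 CPM with a prior count of 2. Library totals were 20.12 to 27.13 M (mega) counts. The fit was run on simulated data as a check. Its outcome is not given here, so it does not say how small a difference could be found.

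The 10 mural genes, the lists around them and the alternatives were chosen with earlier results of these data known. Genes named were all 10, any called gene of a list or else its 3 most abundant tested genes, and the 5 genes most like Rgs5 and most like Myh11 with a mean log2 CPM of at least 1. Srf, Tead1, Rbpj, Kcnj11, Jag2, Pdgfb, Flt1, Csf1r, Myh3 and Prg4 are within that rule or were chosen after their values were seen.

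The shared stem of limb names was read as the animal, which the design text leaves unsettled. Deviations of its 2 limbs from their group means correlated at 0.23, -0.04, -0.01 and -0.10 in inhibitor animals 1 to 4, and at 0.47, -0.18, -0.11 and -0.53 in placebo animals 1 to 4. An alternative had the animal as a block. The others were DESeq2 size factors, no filter, DESeq2 1.42.0, limma-voom 3.58.1 with quality weights, only the libraries compared, a block by replicate number, and leaving out each library. The fit without the libraries high in Prg4 was chosen after seeing the data. Figures were drawn with matplotlib 3.10.9.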

Additional observations from a re-analysis of the deposited data

Results flagged for a closer look

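In 4 of 40 checks of a mural gene within a group, 1 library lay further from the other 3 than Dixon's 95% limit for 4 values, where chance gives about 1 in 20. Pdgfrb, the PDGF-B receptor, was at 40.2 CPM in healthy quadriceps with placebo 4, against 26.1 to 27.8 CPM in the other 3; this library is high in Prg4. Tagln was at 9.65 CPM in healthy quadriceps with placebo 3, against 11.6 to 11.8 CPM. Cnn1 was at 0.813 CPM in healthy quadriceps with placebo 2, against 0.22 to 0.311 CPM. Mcam, the adhesion molecule CD146, was at 22.9 CPM in injured quadriceps with placebo 4, against 14.4 to 14.9 CPM.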

How the results depend on the processing

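No mural gene was called under any alternative run, and in leave-one-out fits their median log2 difference was -0.27 to -0.15 for injury with placebo, -0.03 to 0.15 for injury with inhibitor, 0.23 to 0.36 for inhibitor in injured quadriceps, -0.08 to 0.06 for inhibitor in healthy quadriceps and 0.17 to 0.32 for the difference of the injury effects. Over all genes, edgeR called 0 in each comparison, and DESeq2 called 2, 1, 255, 11 and 0 in the same order. For inhibitor in injured quadriceps, limma-voom with quality weights called 1348 and the replicate number as a replicate block 1. Leaving out 1 library gave 0 to 3 genes for injury with placebo (3 without injured placebo 4), 0 to 39 for inhibitor in injured quadriceps (39 without injured placebo 4) and 0 to 1 for inhibitor in healthy quadriceps (1 without healthy placebo 1). With the animal as a replicate block the median of the mural genes was -0.21 for injury with placebo and 0.06 with inhibitor, and that block changed no call. Without the libraries high in Prg4 the median for inhibitor in injured quadriceps was 0.12, against 0.29 with all libraries. The causes were not tested. The smallest number of libraries, 2 injured placebo ones, limits that alternative, and the 5 to 24 counts of Cnn1 limit what can be said of it.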
